A study of Mus musculus with 5 samples.

Results

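The genes described here encode proteins of the pre-mRNA splicing machinery, chosen by name from a kidney expression table. They are the rows whose symbol begins with Srsf and a digit, Hnrnp, Snrp, or Sf3a or Sf3b and a digit, which gave 52 of the 21878 genes. Of these, 11 are SR protein genes, 20 hnRNP genes, 12 snRNP protein genes and 9 SF3 subunit genes. The deposited annotation places 35 of the 52 in its spliceosome pathway. The kidneys came from F1 hybrids of the strains NZB and NZW, the offspring of NZB/BINJ females and NZW/LacJ males and a spontaneous model of lupus nephritis. In the diosmetin group (3 libraries) this plant flavone was injected intraperitoneally over 6 weeks, 50 mg/kg on alternate days, and the vehicle group (2 libraries) was given vehicle in the same way. All animals share the hybrid genotype, and no age is given in the sources used here. Whether each library stands for its own animal is not stated either, so the p-values refer to sample-to-sample spread that could be technical.

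Splicing removes introns from nuclear transcripts on the spliceosome, an assembly of small nuclear RNAs and proteins. Sm proteins form a ring around those RNAs, the U1 particle recognises the 5′ splice site, and the U2 particle, with its SF3A and SF3B subunits, recognises the branch point. SR proteins bind exonic enhancers and recruit these particles, while hnRNP proteins coat nascent transcripts and often act against exon inclusion. Both families also control their own transcripts by including exons that carry stop codons. The FPKM values here are 1 per gene, so such isoforms are not resolved.

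Depth, estimated from the step between the lowest values, lay between 38.4 and 48.6 M fragments per library. The deposited unit is FPKM, in which fragments are divided by transcript length and library size, so levels can be compared between genes. At those depths the least covered of the tested members, Snrpf, rested on at least 45.5 fragments in each library, the next on at least 222, and the best covered on up to 17930. All 15 proximal tubule markers were above 0, and their summed FPKM lay between 8698 and 13590, so the tissue matched its label. In these bulk samples fewer cells of a type and less RNA per cell cannot be told apart.

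Splicing genes were expressed at moderate to high levels, and most had slightly higher means under diosmetin, by amounts that did not pass the test. Of the 50 members that reached a mean of 0.5 FPKM, 42 had a higher mean log2(FPKM + 1) under diosmetin and 8 a lower one, against 63.9% higher among all 13290 genes tested. The median log2 difference over the members was 0.10 and the median over all genes was 0.04. Members ranged from -0.16 (Snrpa1) to 0.34 (Snrpf). With limma and Benjamini-Hochberg adjustment over all genes 0 members passed at 0.05, as did 0.0% of all genes, and the smallest adjusted p of a member was 0.738. An unadjusted p under 0.05 was reached by 8 members (16%), all of them higher, against 6.37% of all genes, 4.68% higher and 1.69% lower. All 3 diosmetin values exceeded both vehicle values for 20 of the 50 members (40% of them, against 18.3% of all genes), and all lay below for 2 members (4%, against 6.17%).

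Scaling between libraries decided much of this. Median-of-ratios scaling divides each library by the median, over genes above 0 everywhere, of its ratio to the gene's geometric mean. Its factors were 0.954 for vehicle replicate 1 and 0.986, 1.05 and 1.02 for the diosmetin libraries, and vehicle replicate 2 was left almost as it was, so vehicle replicate 1 was raised and diosmetin replicate 2 lowered. It put the median difference of all genes at -0.0040 and that of the members at 0.05. Under it 32 of the 50 members were higher and 18 lower, against 48.8% higher among all genes, and 10 members that were higher as deposited became lower. The members without overlap were then 12 higher (24%, against 11.7% of all genes) and 6 lower (12%, against 10.6%). Only 2 higher and 2 lower members had an unadjusted p under 0.05 (4% each, against 2.92% and 2.86% of all genes, 5.78% in all), and 0 passed adjusted over all genes (smallest adjusted p 0.812, limma), as did 0.0% of all genes. Under both scalings 12 members were higher without overlap (24%, against 11.1% of all genes) and 2 lower (4%, against 5.76%).

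**Figure D1:**
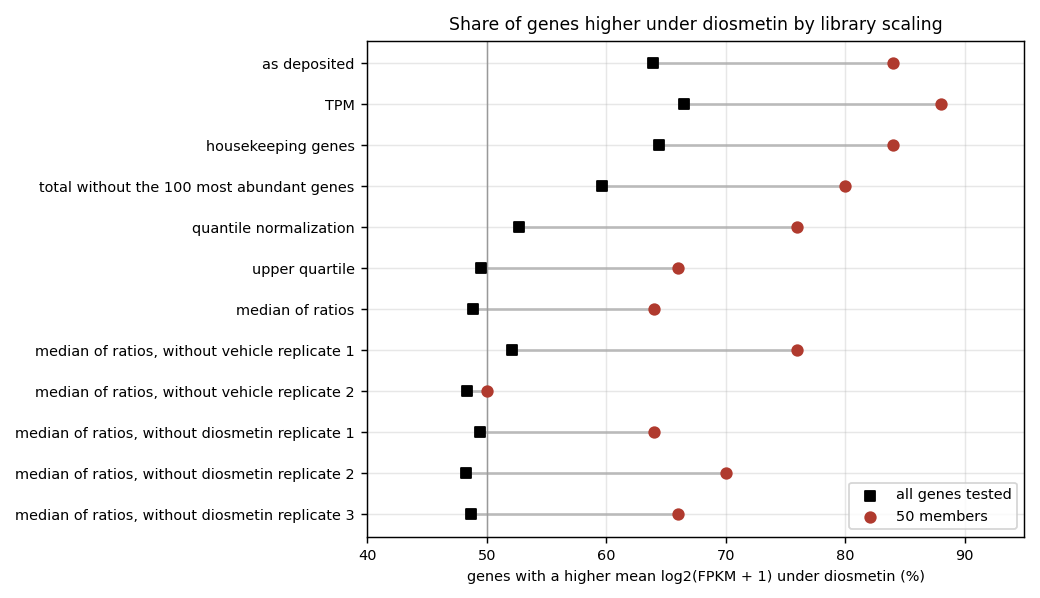
Percentage of genes with a higher mean log2(FPKM + 1) under diosmetin, for the 50 tested members (red circles) and all 13290 genes tested (black squares), under each library scaling and, for the median of ratios, without each library. The members lie to the right of all genes in each row, from 88% with TPM to 50% with the median of ratios without vehicle replicate 2, where all genes stand at 48.4%. The axis runs from 40% to 95%.

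The distance between the members and all genes varied less over the scalings than the members' own median. That steadiness was largely fixed in advance, because each scaling except quantile normalization divides a library by a single factor. Such a factor moves the log2 values of all genes nearly alike. The median of the members minus the median of all genes was 0.06 as deposited and 0.05 with the median of ratios, and it lay between 0.05 and 0.08 under the other scalings, which were TPM, the upper quartile, the total without the 100 most abundant genes, 12 housekeeping genes and quantile normalization. Of the 50 members, 32 were higher under each of the 7 scalings compared (the deposited values counted as 1 of them) and 6 were lower under each. Other tested genes in the range of levels of the members apart from Snrpf, means from 5.20 to 124 FPKM, numbered 8126, and 66.7% of them were higher as deposited and 48.3% with the median of ratios. That distance rested largely on a single library. When vehicle replicate 2 was left out it was 0.02 as deposited and 0.0067 scaled, and in the scaled values 25 of the 50 members were then higher, with a median difference of 0.00064.

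Library by library, the members were low in vehicle replicate 2 and, as deposited, high in diosmetin replicate 2. As deposited, diosmetin replicate 2 held the highest value for 32 of the 50 members (64%), against 37.5% of all genes, and vehicle replicate 2 the lowest value for 20 (40%), against 17.7%. Vehicle replicate 1 was lowest for 19 members (38%), close to its 38.7% among all genes. After median-of-ratios scaling the library most often highest was vehicle replicate 1, for 17 members (34%, against 27.7% of all genes). Diosmetin replicate 2 was then highest for 15 (30%, against 21.4%) and vehicle replicate 2 lowest for 23 (46%, against 20.05%). Vehicle replicate 2 was the lowest library for 8 of the 10 tested SR genes and 10 of the 20 hnRNP genes after that scaling, but for 2 of the 11 snRNP genes and 3 of the 9 SF3 genes.

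**Figure D2:**
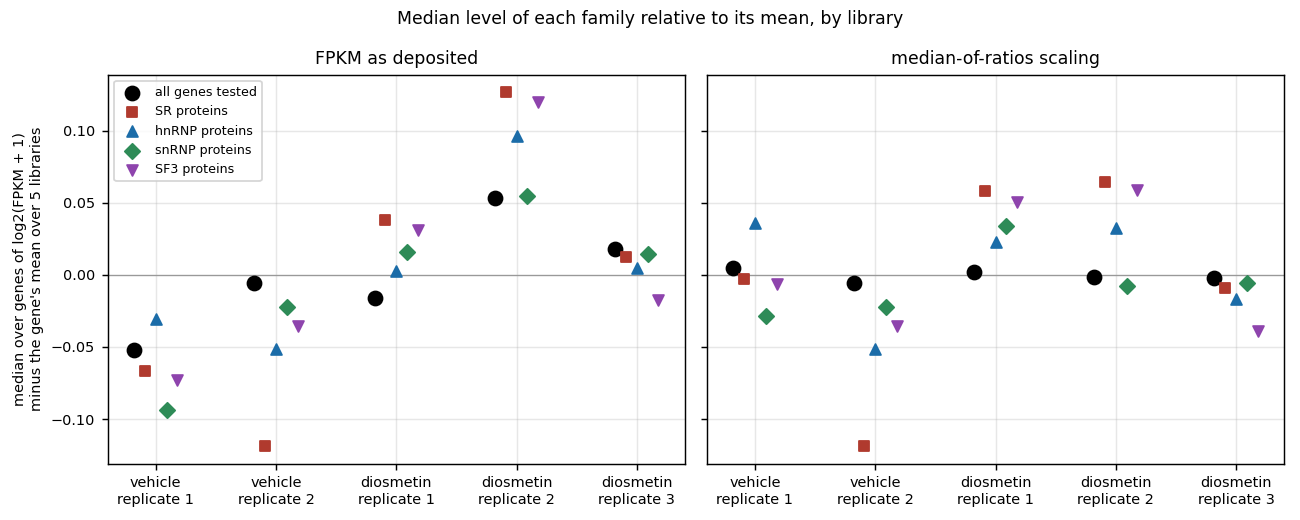
Median over the genes of each family of log2(FPKM + 1) minus the gene's own mean over the 5 libraries, by library, as deposited (left) and after median-of-ratios scaling (right), with all genes tested as black circles. SR genes stand at -0.12 in vehicle replicate 2 in both panels, and in diosmetin replicate 2 they fall from 0.13 to 0.06 with the scaling while all genes fall from 0.05 to -0.0018.

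Cell type markers differed between the same libraries. The summed FPKM of the 15 proximal tubule markers was 13250 and 13590 under vehicle and 10370, 8698 and 11420 under diosmetin, lowest in diosmetin replicate 2. Kap, a tubule protein whose level was read apart after it was seen to carry the sum, was at 4708 and 6153 against 2551, 2808 and 4751 FPKM. Without Kap the sums were 8545 and 7441 against 7820, 5889 and 6671, and the groups overlapped. By gene, 13 of the 15 had a lower mean as deposited and 2 a higher one (13.3%, against 63.9% of all genes). Lrp2 and Cubn were lower without overlap (13.3%, against 6.17% of all genes), also after median-of-ratios scaling. As deposited, 0 of the 15 were higher without overlap (against 18.3%). The 10 collecting duct markers were higher under diosmetin in 10 of 10, and summed to 242.7 and 283.2 against 348.1, 317.6 and 338.5 FPKM. By limma 8 of them were higher at an unadjusted p under 0.05 (80%, against 4.68% of all genes), and 0 passed adjusted over all genes. After median-of-ratios scaling Aqp3 and Scnn1g no longer reached that unadjusted level, though their groups stayed apart. Higher means were found for 9 of 10 markers of the loop of Henle and distal tubule, and their sums of 3320 and 3555 against 3452, 4496 and 4289 overlapped. The 9 measured T and NK cell markers summed to 3.03 and 3.49 against 6.02, 6.55 and 6.94 FPKM, with both vehicle libraries below the diosmetin ones. Only 4 of them reached a mean of 0.5 FPKM. The largest differences were those of Gzmb, at 0.9368 and 0.2758 against 1.82, 2.378 and 2.265 FPKM, and Cd8a, at 1.024 and 0.5655 against 1.526, 1.501 and 1.529. The groups were also apart for Cd3d, which was below that mean. They overlapped for Cd3e, Cd3g, Cd4, Nkg7, Klrb1c and Il7r. All 10 macrophage and dendritic cell markers were above 0, and their sum ran from 32.3 FPKM in vehicle replicate 1 to 167.6 in vehicle replicate 2, with the diosmetin libraries at 115.8, 55.0 and 58.9. The 8 podocyte markers summed to 155.8 and 299.8 FPKM under vehicle and 192.0, 185.8 and 168.7 under diosmetin. The 10 markers of cycling cells, a state with a high demand for splicing factors, summed to 24.4 and 36.2 FPKM under vehicle and 35.0, 34.4 and 33.6 under diosmetin. Most of each sum was Pcna, at 17.8 and 23.4 against 22.5, 21.7 and 22.9 FPKM. The part of these markers in the values of the splicing genes was not tested.

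Promoters of these genes were read because many members were high or low in the same libraries. Whether promoter letters bear on those levels was not tested. RefSeq (GRCm38.p6) gave promoter windows for 46 of the 52 members, 63 windows in all, and the 250 bases upstream of each start were searched on both strands. The ETS core CCGGAAG stood in 19 windows (30.2%, from 15 genes), against 12.3% of the 13451 windows of other tested genes and 6.91% of all 32851 windows. CCAAT stood in 27 (42.9%), against 34.6% and 33.8%. TATAAA was found in 6 windows (9.52%, against 6.99% and 12.4%), CACGTG in 5 (7.94%, against 8.07% and 6.02%), TGACGTCA in 2 (3.17%, against 2.36% and 1.55%), the NRF1 motif in 1 (1.59%, against 1.49% and 0.782%) and the YY1 motif in 0 (against 0.587% and 0.301%). The median window of a member held 19 CG dinucleotides, that of other tested genes 15 and that of all genes 6. Windows of the same gene can overlap, and many member windows lie with all 250 bases inside the annotated gene. Some genes, such as Hnrnph1 and Hnrnpf, gave several windows, and those of the untested Snrpn and Srsf12 are counted. A match is a string of letters, not a site shown to be bound. The windows printed here, 1 per family, belong to the member with the smallest p among those whose groups did not overlap under both scalings and whose window runs at most 30 bases into the gene. They lie at chr5:115326927-115327176 on the plus strand (Srsf9), chr14:52104022-52104271 on the minus strand (Hnrnpc), chr6:86371290-86371539 on the plus strand (Snrpg) and chr8:110846804-110847053 on the minus strand (Sf3b3). Capitals mark CCAAT and the ETS core on either strand, and the Srsf9 window holds neither.
Srsf9: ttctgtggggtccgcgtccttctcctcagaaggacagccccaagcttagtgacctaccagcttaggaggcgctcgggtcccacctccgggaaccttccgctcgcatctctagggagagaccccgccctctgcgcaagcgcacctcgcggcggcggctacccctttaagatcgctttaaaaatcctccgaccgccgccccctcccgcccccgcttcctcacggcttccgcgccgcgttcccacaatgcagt
Hnrnpc: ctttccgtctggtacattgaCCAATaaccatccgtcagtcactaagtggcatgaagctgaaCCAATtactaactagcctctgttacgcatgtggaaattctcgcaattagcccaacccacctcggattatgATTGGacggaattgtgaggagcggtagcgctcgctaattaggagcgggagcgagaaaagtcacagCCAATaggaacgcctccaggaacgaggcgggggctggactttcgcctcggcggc
Snrpg: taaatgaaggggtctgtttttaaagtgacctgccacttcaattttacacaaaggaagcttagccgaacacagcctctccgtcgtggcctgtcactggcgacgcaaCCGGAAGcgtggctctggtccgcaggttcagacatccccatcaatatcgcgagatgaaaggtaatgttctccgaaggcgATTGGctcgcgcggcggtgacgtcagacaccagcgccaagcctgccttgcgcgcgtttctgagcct
Sf3b3: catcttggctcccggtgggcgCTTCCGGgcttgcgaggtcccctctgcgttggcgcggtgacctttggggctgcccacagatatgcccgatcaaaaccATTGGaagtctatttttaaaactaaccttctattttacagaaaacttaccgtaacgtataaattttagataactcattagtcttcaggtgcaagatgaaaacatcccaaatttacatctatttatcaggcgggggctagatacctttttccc

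SR proteins combine RNA recognition motifs with a tail rich in arginine and serine. Of the 10 tested SR genes 9 were higher as deposited and 8 with the median of ratios, with median log2 differences of 0.14 and 0.09. Srsf10 (GeneID 14105, chromosome 4 from 135855752 to 135869908), a splicing repressor when dephosphorylated, was at 13.9 and 13.5 FPKM under vehicle and 15.9, 16.5 and 15.4 under diosmetin. Its groups did not overlap, and its log2 difference was 0.20 ± 0.07 (SE), or 0.15 ± 0.07 with the median of ratios (limma adjusted p = 0.738 and 0.812). Srsf1 (GeneID 110809, chromosome 11 from 88046499 to 88053757), the founding member that strengthens 5′ splice site choice, was at 39.4 and 40.3 FPKM under vehicle and 44.4, 47.9 and 43.1 under diosmetin. Every diosmetin value lay above both vehicle values, also after scaling, with a difference of 0.17 ± 0.07.

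Srsf3, the smallest SR protein and a link to mRNA export, gave 35.9 and 35.0 FPKM under vehicle against 45.1, 47.0 and 36.1 under diosmetin. Diosmetin replicate 3 lay next to the vehicle libraries, and the groups overlapped after scaling (0.25 ± 0.12 as deposited). Its close relative Srsf7 stood at 27.2 and 24.4 against 29.6, 30.4 and 27.96 FPKM, a difference of 0.18 ± 0.07 as deposited. These groups were apart as deposited and overlapped after scaling, and without vehicle replicate 2 the difference was 0.11. Srsf4 and Srsf9, named after their values were seen, were the other SR genes apart under both scalings, at 13.0 ± 0.268 (SD, n = 2) against 14.4 ± 0.380 (n = 3) and 15.6 ± 1.02 against 17.5 ± 1.22 FPKM. After scaling the Srsf9 groups were barely apart, with vehicle replicate 2 at 16.352 and diosmetin replicate 3 at 16.37.

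Srsf5 had the highest mean of the whole set over all 5 libraries, though Hnrnpa2b1 was higher in the diosmetin group, and it was the only SR gene with a lower mean as deposited. It was at 129 and 125 FPKM under vehicle and 119, 118 and 130 under diosmetin, where diosmetin replicate 3 exceeded both vehicle libraries. Srsf2, which activates exons through purine- and pyrimidine-rich enhancers alike, was at 56.5 and 51.0 against 56.5, 55.8 and 57.9 FPKM, and the groups overlapped. Srsf12 was near the detection limit, at 0.0065 to 0.054 FPKM or at most an estimated 4.78 fragments per library, and was not tested.

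**Figure D3:**
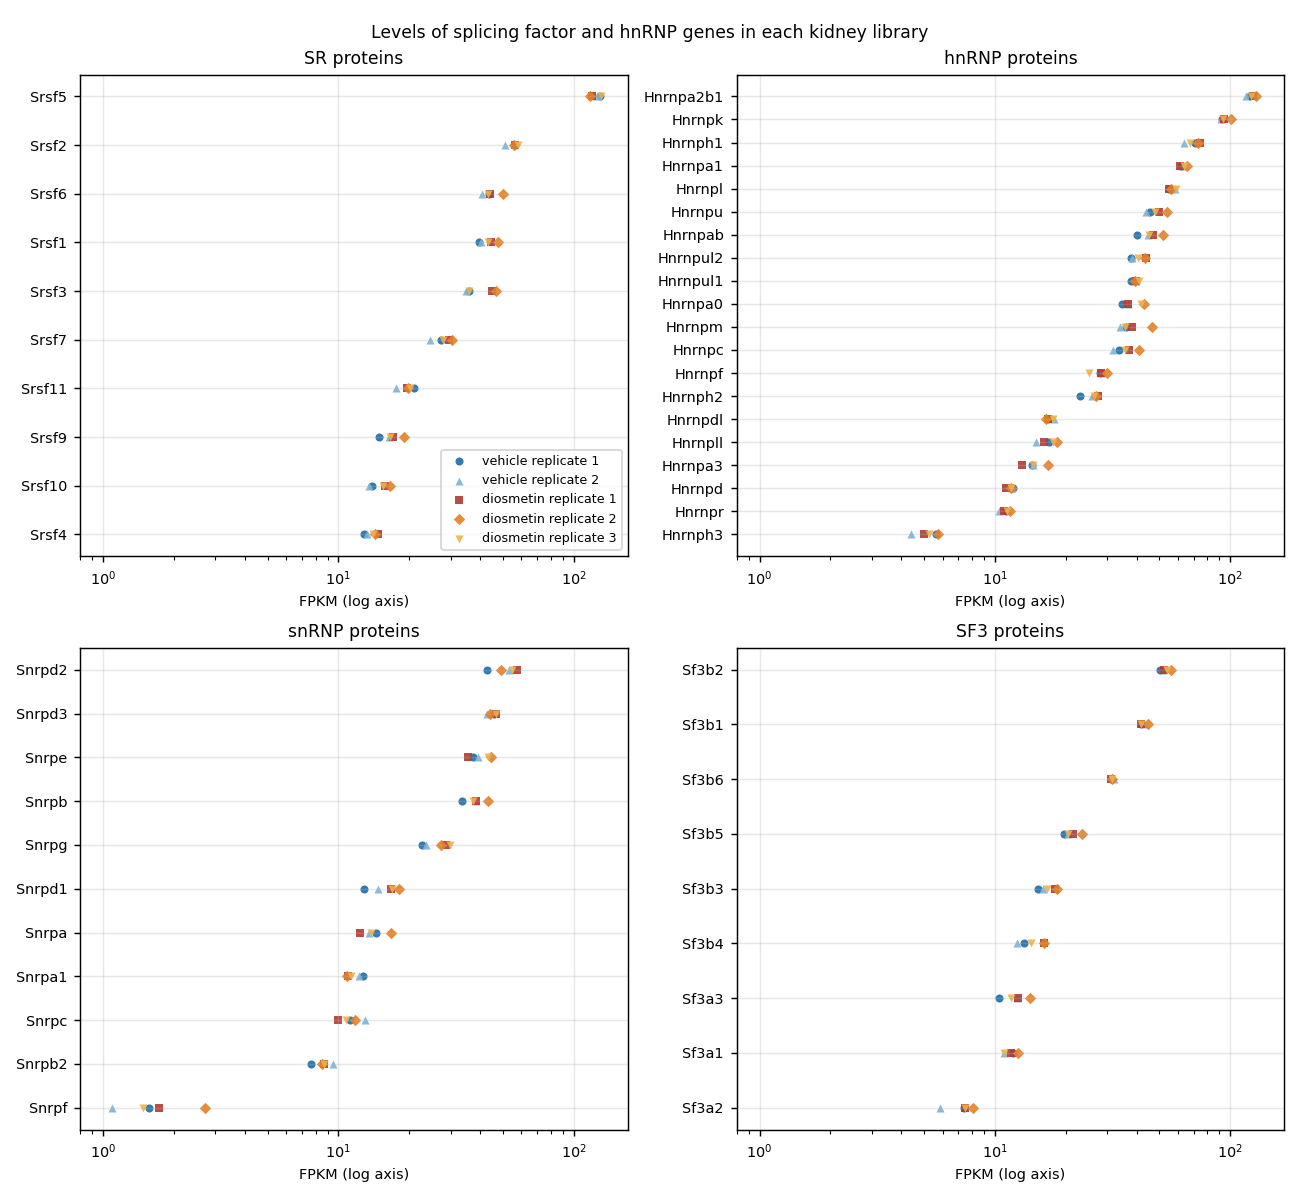
FPKM (log axis) of each tested member in each of the 5 libraries, in 4 panels by family, with vehicle libraries in blues and diosmetin libraries in red and oranges. Levels span from about 1 FPKM for Snrpf to 130 for Srsf5, and the libraries of a gene lie close together compared with the distances between genes.

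Of the 20 hnRNP genes, 16 were higher as deposited and 12 with the median of ratios, with median log2 differences of 0.07 and 0.02. Hnrnpc (GeneID 15381, chromosome 14 from 52073377 to 52104039), which packages nascent transcripts and masks uridine-rich tracts, was at 33.6 and 31.9 FPKM under vehicle and 37.1, 40.9 and 35.8 under diosmetin. The groups stayed apart after scaling, with differences of 0.21 ± 0.08 as deposited and 0.15 ± 0.08 scaled. The scaled margin was small, with vehicle replicate 1 at 35.191 and diosmetin replicate 3 at 35.276. Hnrnpu (GeneID 51810), a nuclear scaffold protein that also binds chromatin, was at 45.6 and 43.8 against 50.1, 53.9 and 48.1 FPKM, a difference of 0.18 ± 0.07. Its groups were apart as deposited and overlapped after scaling. Hnrnpul2 and Hnrnpa0, named after their values were seen, were the other higher hnRNP genes apart under both scalings, at 38.1 ± 0.299 (SD, n = 2) against 42.6 ± 1.81 (n = 3) and 35.8 ± 1.60 against 40.5 ± 3.11 FPKM.

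The most abundant hnRNP genes had small differences. Hnrnpa2b1, which also sorts RNAs for transport, was at 121 and 117 FPKM under vehicle and 125, 129 and 123 under diosmetin, a difference of 0.07 ± 0.06 that became 0.015 with scaling. Hnrnpa1, the classical antagonist of SR proteins in exon choice, was at 61.6 and 62.4 against 61.4, 65.4 and 63.8 FPKM, with overlapping groups. Its difference was 0.034 as deposited and -0.021 scaled. Hnrnpk, a protein of C-rich RNA and DNA, gave 92.4 and 91.5 against 94.4, 101 and 93.1 FPKM, and Hnrnph1, which binds G-rich runs, gave 70.9 and 63.9 against 74.4, 73.3 and 67.7. The Hnrnpk groups were apart as deposited by less than 1 FPKM, and the Hnrnph1 groups overlapped.

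Hnrnpm and Hnrnpab had differences that depended on single libraries. Hnrnpm was at 36.2 and 33.96 FPKM under vehicle and 38.3, 46.5 and 35.8 under diosmetin, and Hnrnpab at 40.2 and 44.6 against 47.1, 51.8 and 45.2. In both genes diosmetin replicate 2 was highest. The Hnrnpm difference fell from 0.18 to 0.08 without diosmetin replicate 2, and that of Hnrnpab from 0.18 to 0.10 without vehicle replicate 1. Hnrnpd and Hnrnpdl, related proteins that bind AU-rich RNA, had slightly lower means, at 11.9 and 11.8 against 11.2, 11.7 and 11.7 FPKM and at 16.9 and 17.9 against 16.9, 16.6 and 17.7. The differences were -0.04 ± 0.07 and -0.02 ± 0.07 as deposited and -0.09 ± 0.06 and -0.08 ± 0.07 with the median of ratios. The Hnrnpd groups were apart under both scalings and those of Hnrnpdl only after scaling, all in the lower direction.

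The snRNP protein genes held both the largest higher and the largest lower differences. Snrpg (GeneID 68011, chromosome 6 from 86371540 to 86378902), an Sm ring subunit, was at 22.7 and 23.5 FPKM under vehicle and 28.7, 27.3 and 29.8 under diosmetin. The groups were well apart under both scalings, with differences of 0.30 ± 0.07 and 0.24 ± 0.07, and its unadjusted p was 0.00373 as deposited and 0.0151 scaled (limma adjusted p = 0.738 and 0.812). Snrpd1 (GeneID 20641, chromosome 18 from 10617796 to 10628230), another subunit of the ring, was at 12.9 and 14.8 against 16.7, 18.2 and 16.9 FPKM. It too was apart under both scalings, with differences of 0.30 ± 0.08 and 0.25 ± 0.07 (limma adjusted p = 0.738 and 0.812). In the other direction Snrpa1, the U2 A′ protein, named after its values were seen, was at 12.7 and 12.2 FPKM under vehicle and 10.96, 10.9 and 11.3 under diosmetin. All diosmetin values lay below both vehicle values under both scalings, with differences of -0.16 ± 0.07 and -0.21 ± 0.07.

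The ring subunits differed among themselves. Snrpb was at 33.6 and 38.6 FPKM under vehicle and 38.3, 43.4 and 37.3 under diosmetin, and Snrpd2 at 42.9 and 53.3 against 57.2, 49.0 and 54.7. In both genes vehicle replicate 1 was lowest and vehicle replicate 2 lay among the diosmetin libraries. Without vehicle replicate 1 their differences of 0.13 and 0.16 became 0.04 and 0.0046, and without vehicle replicate 2 they became 0.23 and 0.31. For Snrpb it was 0.07 without diosmetin replicate 2. Snrpf had the lowest level of the tested members, at 1.57 and 1.09 against 1.73, 2.72 and 1.47 FPKM, and its difference of 0.34 had an SE of 0.20. That difference was 0.17 without diosmetin replicate 2, 0.19 without vehicle replicate 2 and 0.51 with a pseudocount of 0.1. Short, highly conserved Sm genes have processed pseudogenes that could take fragments from them, and how the counting treated such reads is not given in the sources used here.

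The Snrp genes for proteins of the U1 or U2 particle alone were Snrpa, Snrpc, Snrpb2 and Snrpa1. Snrpa, the U1 A protein, was at 14.4 and 13.4 FPKM under vehicle and 12.4, 16.8 and 13.8 under diosmetin, and its vehicle values lay between those of diosmetin replicates 1 and 2. Snrpc, the U1 C protein that contacts the 5′ splice site, was at 11.2 and 13.0 against 9.98, 11.7 and 10.8 FPKM, lower by -0.14 ± 0.10 as deposited and -0.19 ± 0.08 scaled. Its groups overlapped as deposited and were apart after scaling. Snrpb2, the U2 B″ protein, was at 7.67 and 9.52 against 8.71, 8.51 and 8.70 FPKM, and its vehicle libraries enclosed the diosmetin ones (both were named after their values were seen). Snrpn, an imprinted Sm gene best known from neurons, was listed at 0 in all 5 libraries, as was Snurf, which RefSeq places at the same position from 59982495 on chromosome 7. With both listed at 0, the values do not show whether the shared locus was silent or its fragments were assigned to neither gene.

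SF3A and SF3B are the protein complexes of the U2 particle that hold the branch point. Of the 9 genes 8 were higher as deposited and 6 with the median of ratios, with medians of 0.11 and 0.05. Sf3b4 (GeneID 107701, chromosome 3 from 96172506 to 96177564), which contacts RNA next to the branch point, was at 13.3 and 12.4 FPKM under vehicle and 16.1, 16.3 and 14.3 under diosmetin. Its groups were apart under both scalings, with differences of 0.25 ± 0.08 and 0.20 ± 0.09 (limma adjusted p = 0.738 and 0.812). Sf3b3 (GeneID 101943, chromosome 8 from 110810491 to 110846806), a scaffold of the complex, was at 15.2 and 16.0 against 18.1, 18.4 and 16.6 FPKM, a difference of 0.17 ± 0.07. It stayed apart after scaling, and so did Sf3b2, the most abundant subunit, at 50.3 and 52.0 against 52.5, 56.0 and 54.0 FPKM.

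Sf3b1, the subunit that clamps the branch point and a frequent target of cancer mutations in humans, had nearly equal means. It was at 42.0 and 43.1 FPKM under vehicle and 41.8, 44.9 and 42.0 under diosmetin, a difference of 0.012 ± 0.06. Sf3b6, named after its values were seen, contacts the branch point adenosine and gave 31.1 and 32.0 against 31.1, 31.6 and 31.3 FPKM. Both genes overlapped as deposited and were lower without overlap after scaling, by differences of -0.04 and -0.06. Among the SF3A subunits, Sf3a1 was at 11.9 and 10.96 against 11.8, 12.5 and 10.99 FPKM, Sf3a2 at 7.40 and 5.85 against 7.45, 8.05 and 7.50, and Sf3a3 at 10.4 and 12.4 against 12.6, 14.0 and 11.8. The Sf3a2 groups were apart as deposited, by a small margin, and overlapped after scaling, and the other 2 genes overlapped under both. Leaving out vehicle replicate 1 moved the Sf3a2 difference from 0.19 to 0.34, and leaving out vehicle replicate 2 moved it to 0.04. For Sf3a3 it was 0.15 with all libraries, 0.04 and 0.27 without vehicle replicates 1 and 2, and 0.09 without diosmetin replicate 2.

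**Figure D4:**
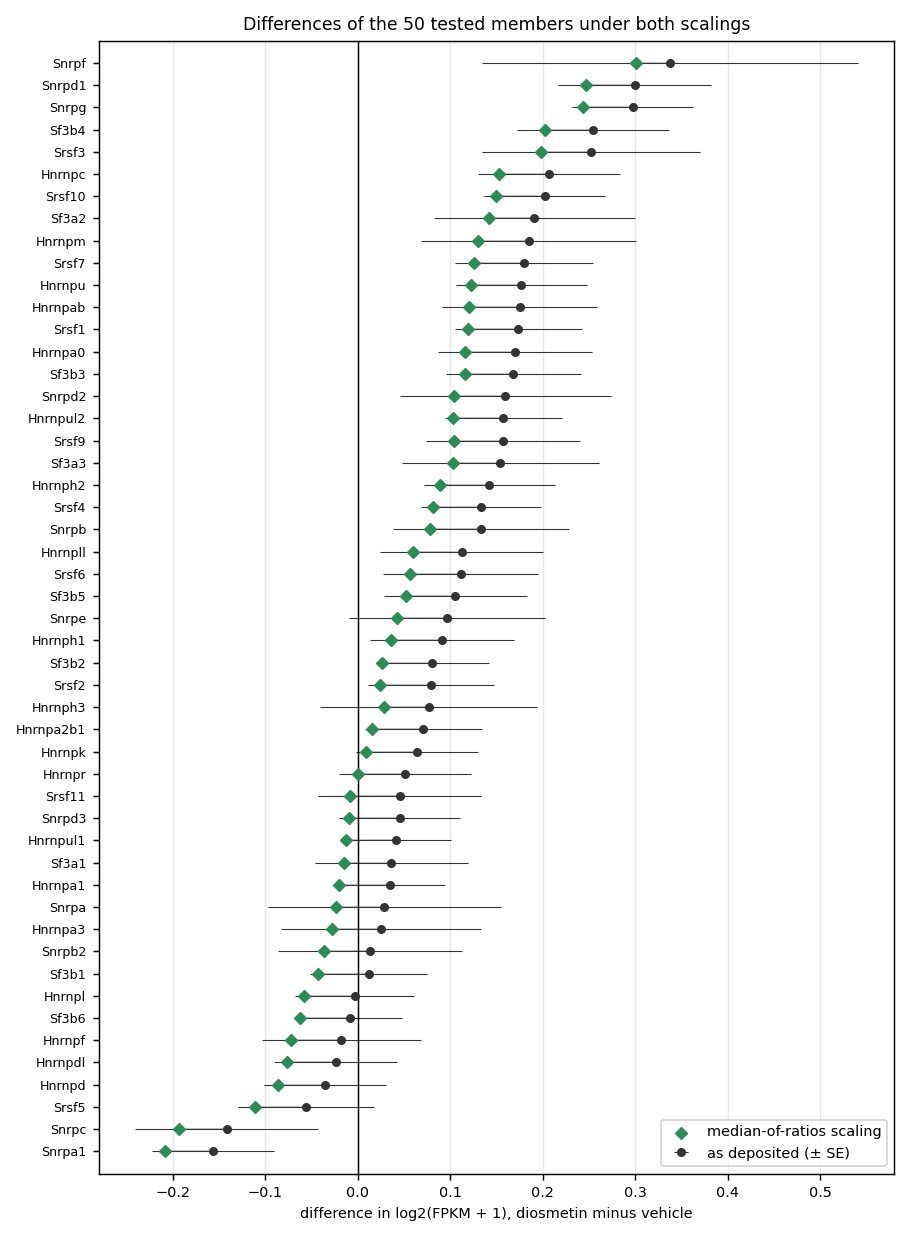
Difference in log2(FPKM + 1), diosmetin minus vehicle, of each of the 50 tested members as deposited (black circles with SE) and with median-of-ratios scaling (green diamonds), ordered by the deposited difference. All members shift to the left with scaling, from 42 higher to 32 higher, and the deposited values run from 0.34 for Snrpf to -0.16 for Snrpa1.

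Ratios between related genes do not depend on library scaling beyond the pseudocount, and 10 of 12 chosen pairs could be measured. The log2 ratio of Hnrnpul1 to Hnrnpul2 was 0.0034 and 0.06 under vehicle and -0.13, -0.14 and 0.02 under diosmetin, a difference of -0.12, the largest in size over the pairs together with Hnrnpl to Hnrnpll. Diosmetin replicate 3 lay between the vehicle libraries. The ratio of Hnrnpl to Hnrnpll, whose protein is known for CD45 splicing in T cells, was 1.64 and 1.89 under vehicle and 1.71, 1.56 and 1.68 under diosmetin. That of Srsf1 to Srsf9 was among the steadiest, between 1.25 and 1.35 over the 5 libraries, and that of Hnrnpa1 to Hnrnpa2b1 lay between -1.01 and -0.90. By an exact two-sided permutation test over 10 splits, whose smallest p is 0.1, p lay between 0.3 and 1.0, with adjusted p = 1 for each of the 10 pairs.

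Other genes of the splicing pathway were higher in about the same share as the members. Of 197 genes on 10 lists 186 were tested, and 157 were higher and 29 lower as deposited, with a median log2 difference of 0.08. With the median of ratios 119 were higher and 67 lower, with a median of 0.03, and 0 passed by limma adjusted over all genes under either scaling. At an unadjusted p under 0.05 there were 14 higher (7.53%, against 4.68% of all genes) and 0 lower (against 1.69%) as deposited. Scaled, there were 3 higher and 3 lower (1.61% each, against 2.92% and 2.86%), below the share of all genes. Groups were apart and higher for 61 of the 186 as deposited (32.8%, against 18.3% of all genes) and 34 scaled (18.3%, against 11.7%). They were apart and lower for 4 (2.15%, against 6.17%) and 7 (3.76%, against 10.6%). For each list the share of all genes to compare with was 63.9% higher as deposited and 48.8% scaled. Among the lists, 11 of 12 genes listed with U1 and 13 of 15 listed with U2 were higher as deposited, and 7 and 7 of them scaled. The scaled share was 58.3% for U1 and 46.7% for U2, the latter below all genes, with a median log2 difference of -0.014. The lower gene listed with U1 was Zrsr2 (-0.12 ± 0.09), whose place among partners of U1 is open to question. Luc7l3 was at 20.7 and 21.4 FPKM under vehicle and 22.0, 23.9 and 24.8 under diosmetin, and Prpf40b at 7.23 and 6.73 against 7.02, 8.77 and 8.17. Cherp and Sf1, the branch point binding protein, had differences of 0.14 and 0.13. The Luc7l3 groups were apart under both scalings, and those of Prpf40b overlapped.

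In the tri-snRNP 18 of 24 genes were higher as deposited and 15 scaled, led by Lsm5 (0.28 ± 0.14) and Cd2bp2 (0.24 ± 0.09). In the Prpf19-associated complex and catalytic proteins it was 23 and 16 of 26, led by the cyclophilins Ppil1 (0.30 ± 0.12) and Ppie (0.23 ± 0.09). The minor spliceosome, which removes a rare class of introns, had 9 and 7 of 11 higher, with Rnpc3 at 7.40 and 7.91 FPKM under vehicle against 9.39, 9.11 and 9.03 under diosmetin, and Snrnp35 at 3.66 and 2.60 against 3.62, 5.24 and 4.50. The Rnpc3 groups were apart under both scalings and the Snrnp35 groups overlapped. SR protein kinases and SR-related genes had 17 and 15 of 23 higher, led by Tra2a (0.22 ± 0.08) and Scaf4 (0.19 ± 0.06). Among exon junction and decay genes 13 and 10 of 15 were higher, with Magoh at 0.20 ± 0.09 (SE) and Smg6, a decay endonuclease, at -0.18 ± 0.07. Of the other hnRNP-class genes 20 and 16 of 23 were higher, with Pcbp1 at 0.23 ± 0.09 and the cold-inducible Cirbp at -0.25 ± 0.13. Of 33 further splicing regulators 22 were tested, with 20 and 15 higher, led by Rbm38 (0.30 ± 0.15) and Khdrbs1 (0.18 ± 0.08). For snRNP assembly genes it was 13 and 11 of 15, led by Gemin4 (0.27 ± 0.11) and Tgs1 (0.23 ± 0.09). Single libraries moved several of these by over 1.5 times. Without vehicle replicate 1 the difference of Cd2bp2 was 0.15, of Ppil1 0.17, of Rbm38 0.12 and of Cirbp -0.13. Without vehicle replicate 2 that of Cherp was 0.08, of Tra2a 0.12, of Gemin4 0.16, of Snrnp35 0.22 and of Rbm38 0.48. Without diosmetin replicate 2 that of Prpf40b was 0.10, of Sf1 0.09 and of Lsm5 0.16.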

How the data were processed

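Per the labels, ribosomal RNA was removed from total kidney RNA of sufficient integrity, and stranded libraries were read from both ends. The authors deposited FPKM values, and the submitters' processing notes name the build GRCm38. Aligner, counter and use of strand: not given in the sources used here. Paralogs, overlapping genes and pseudogenes may therefore share reads. Positions were matched by GeneID to RefSeq (GRCm38.p6). Depth was estimated from steps among genes with a mean under 0.05 FPKM and GENCODE transcript lengths, and no count test was run. Genes with a mean of 0.5 FPKM or more, 13290 in all, were tested on log2(FPKM + 1), which understates changes of low genes, by limma with trend, two-sided, 3 residual degrees of freedom, and Benjamini-Hochberg adjustment at 0.05. The procedure was tested on simulated data. The members and lists were chosen with earlier results of these data known. Named members are, per family, the 4 largest differences (mean FPKM of at least 1), the 2 smallest p and the highest level, with 20 genes listed by name, and the 2 largest differences of each pathway list. This gave 30 members and 20 other genes, and 8 members were added after their values were seen. Alternatives were a pseudocount of 0.1, other filters, scalings and variance models, and leaving out each library. Software was limma 3.58.1 in R 4.3.3, and Python 3.11.15 with pandas 2.3.3, numpy 2.4.6 and matplotlib 3.10.9.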

Additional observations from a re-analysis of the deposited data

How the results depend on the processing

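No paired analysis was possible because the labels give each library its own number. The alternatives that combine median-of-ratios scaling with leaving out a library, and those for 3 of the counts, were chosen after seeing the data. Where leaving out a library leaves 1 vehicle sample, that sample is assumed to vary like the diosmetin group. With 2 against 3 libraries, and no gene passing the adjusted threshold, direction is the most these values can show, and it was not settled for every member. It was the same under each of the 7 scalings for 38 of the 50 members, and 10 changed it with median-of-ratios scaling. Leaving out single libraries changed it for others. These are given below for named genes only, and members not named, such as Hnrnph3 without vehicle replicate 2, changed as well.

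The members' median log2 difference of 0.10 became 0.047 with the median of ratios, 0.047 when the members did not enter that scaling and 0.049 with the upper quartile. It ran from 0.07 to 0.12 when single libraries were left out and, under the median of ratios, from 0.00064 without vehicle replicate 2 to 0.08, with 0.044 without diosmetin replicate 1 and 0.037 without diosmetin replicate 2. The count of members higher ran from 39 to 43 as deposited, and under the median of ratios from 25 without vehicle replicate 2 to 38. Members with an unadjusted p under 0.05, 8 as reported, were 4 with the median of ratios, 4 without the members in it and 5 with the upper quartile. They were 4 without the mean-variance trend and 4 with array weights. Of all 13290 genes 847 reached it as reported, and 768, 766, 783, 819 and 817 under these 5 settings in turn. Leaving out a diosmetin library gave from 2 members without diosmetin replicate 2 (386 of all genes) to 10 without diosmetin replicate 3 (681 of all genes). Members higher without overlap, 20 as reported, were 12 with the median of ratios, 12 without the members in it and 10 with the upper quartile. They were 23 to 31 when libraries were left out, which leaves fewer values to overlap. The share of all genes was 18.3% as reported and 11.7% with the median of ratios, and was not computed for the other settings. Genes with an unadjusted p under 0.05 numbered 386 without diosmetin replicate 2 to 1463 without vehicle replicate 2. Otherwise the cause was not tested.

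Some small differences changed sign. Under the median of ratios, the same without the members, and the upper quartile, the log2 difference of Hnrnpa1 was -0.021, -0.021 and -0.018, the log2 difference of Snrpa -0.024, -0.024 and -0.021, the log2 difference of Sf3b1 -0.043, -0.043 and -0.041, the log2 difference of Sf3a1 -0.015, -0.015 and -0.013, and the log2 difference of Snrpb2 -0.036, -0.036 and -0.034. Quantile normalization gave -0.022 for Snrpa, -0.020 for Sf3b1, -0.0093 for Sf3a1 and -0.042 for Snrpb2. Without the 100 most abundant genes in the total, Sf3b1 was at -0.0048 and Snrpb2 at -0.0017, and the log2 difference of Sf3b6 was 0.0014 as TPM. Leaving out single libraries gave -0.063 to 0.015 for Hnrnpdl, -0.082 to 0.12 for Snrpa, -0.022 to 0.030 for Sf3b1, -0.019 to 0.092 for Sf3a1, -0.028 to 0.011 for Sf3b6 and -0.13 to 0.15 for Snrpb2. The difference in log2 ratio then ran from -0.17 to 0.20 for Snrpa to Snrpb2, -0.048 to 0.079 for Hnrnpa1 to Hnrnpa3, -0.056 to 0.034 for Hnrnpd to Hnrnpdl, -0.21 to 0.10 for Hnrnph1 to Hnrnph2, -0.24 to 0.013 for Hnrnpl to Hnrnpll, -0.030 to 0.063 for Srsf1 to Srsf9 and -0.048 to 0.092 for Srsf4 to Srsf6.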
